A study of Mus musculus with 4 samples.

Results

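TRIM genes encode proteins that join a RING domain, B-box zinc fingers and a coiled coil, mostly followed by a C-terminal domain that sets what each protein binds. Many act as E3 ubiquitin ligases, which hand ubiquitin from an E2 enzyme to a target protein. In macrophages the family is known for tuning the sensors of viral RNA and DNA and the Toll-like receptor pathways, and many of its members are induced by interferon. The family was taken as all gene symbols that begin with Trim followed by a digit, which gave 66 of the 23284 genes in the files. Levels are in FPKM, the fragments of a gene divided by its transcript length and by library size. Of the 66 genes, 32 stayed under 1 FPKM in all 4 libraries. The other 34 reached 1 FPKM in at least 1 library, and 23 of these reached 5 FPKM.

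RNA had been sequenced from mouse bone marrow-derived macrophages of 2 genotypes, control (Spic+/+) and Spic-/-, titled as a conditional knockout with no allele, Cre driver or animal age in the labels. Spic encodes the heme-inducible Ets factor Spi-C. Every culture, controls included, had received 40 µM hemin for 18 h and was then kept for 4 h without LPS or with 100 ng/ml LPS, a bacterial glycolipid sensed by Toll-like receptor 4. The series asks which Toll-like receptor-dependent genes Spi-C lowers. Each of the 4 combinations was 1 library, so differences between groups have no replicate error and carry no test or p-value.

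Spic stood at 53.1 FPKM without and 406 FPKM with LPS in control, and at 14.98 and 80.8 FPKM in knockout. All 8 macrophage markers found in the files reached 1 FPKM, while 6 of 7 erythroid markers were listed at 0 in every library. From the spacing of low values, each FPKM stood for an estimated 15.6 (control) and 12.9 (knockout) fragments per kilobase without LPS, and for 10.6 and 8.06 with it. The 95% intervals below are exact (Clopper-Pearson) intervals of FPKM ratios on these estimated fragments, with transcript lengths from GENCODE vM21. They cover counting error only. Differences called log2 ratios are of (FPKM + 1), a scale that shrinks those of low genes.

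Before LPS the most abundant TRIM messages of control macrophages were those of Trim25 at 39.6 FPKM, Trim35 at 33.97, Trim8 at 33.2, Trim28 at 29.2 and Trim30a at 27.85. Trim25 encodes the ligase that activates the RNA sensor RIG-I, Trim28 the corepressor of KRAB zinc finger proteins, and Trim8 a ligase of cytokine and TNF signalling. The same 5 genes led in knockout without LPS, with Trim30a in second place at 34.8 FPKM. With LPS the order was different: Trim30a led at 108 FPKM in control and 152 in knockout, followed by Trim25 at 104 and 119.9, with Trim21 and Trim30d next in both genotypes. The FPKM of all 66 genes summed to 385 without and 663 with LPS in control, and to 412 and 828 in knockout. That sum was 0.077% and 0.09% of the library's summed FPKM in control, and 0.0785% and 0.101% in knockout.

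**Figure D1:**
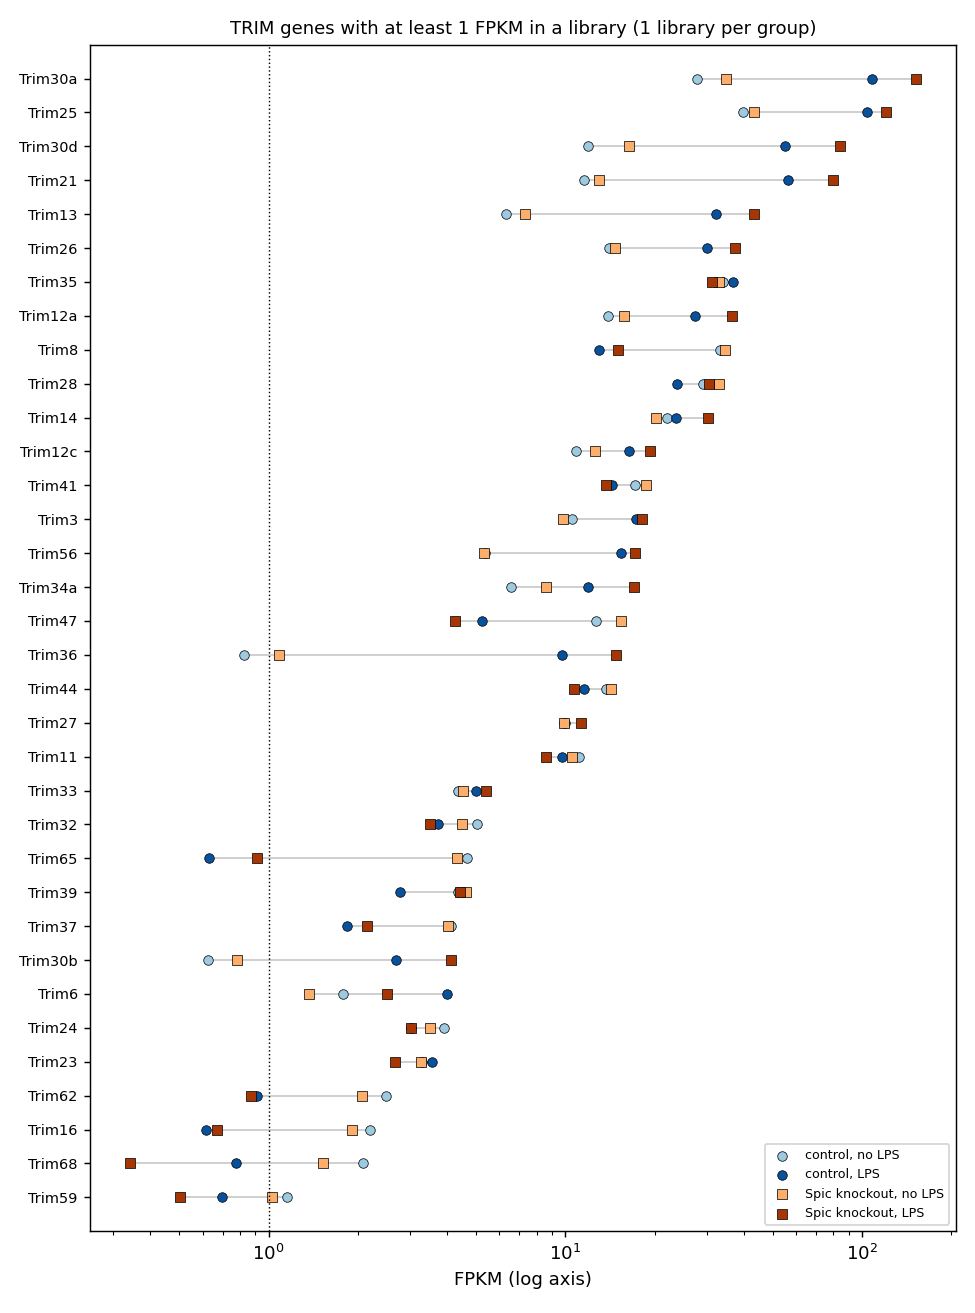
FPKM (log axis) of the 34 TRIM genes that reached 1 FPKM, 1 point per library, with circles for control, squares for Spic knockout, and dark symbols for LPS. Trim30a and Trim25 lie farthest right with LPS, Trim30b is under the 1 FPKM line without LPS and above it with LPS in both genotypes, Trim65 the reverse, and Trim27 and Trim35 have their 4 points close together.

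Of the 32 genes under 1 FPKM, 15 were listed at 0 in all 4 libraries. They included the muscle ring finger genes Trim54, Trim55 and Trim63, the membrane repair gene Trim72, the stem cell gene Trim71, and Trim10, Trim15 and Trim40, which lie on chromosome 17 as Trim26 does. For a 2 kb transcript, a count of 0 allows up to 0.107 FPKM in control without LPS and up to 0.208 FPKM in knockout with LPS, taking 3 fragments as the limit. Trim38, known as a brake on Toll-like receptor signalling, was at 0.053 FPKM in control without LPS and listed at 0 in the other 3 libraries. Nearest to the 1 FPKM limit were Trim45, with a highest value of 0.912 FPKM, below it and Trim59, with 1.16 FPKM, above it. The share under 1 FPKM was 48.5% of TRIM genes, 53% of all genes and 23.4% of the 77 RNF genes, another family of mostly RING-type ligases.

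Several of the TRIM genes that stood higher with LPS carry the core of the interferon response element near their start, and the sequences are shown because the paralogs Trim30a and Trim30d share this stretch. The pattern GAAA, any 2 bases, GAAA (TTTC, any 2 bases, TTTC on the other strand) was searched on both strands of RefSeq promoters of GRCm38.p6, which run from 250 bases before to 50 bases after each start. A promoter was given for 50 of the 66 genes, and 8 of them (16%) held a match, against 3.88% of 15707 genes and 6.78% of 59 RNF genes. Of the 8 genes with a promoter whose level with LPS was 2-fold higher in both genotypes (from 1 FPKM), 4 held a match: Trim21, Trim26, Trim30a and Trim30d. Trim13, Trim25, Trim56 and Trim30b held none in this window, and Trim36 had no promoter in the table. Of the other 17 TRIM genes from 1 FPKM, 3 held a match: Trim12a, Trim12c and Trim34a. The remaining match was in Trim2, which stayed under 1 FPKM and is not printed below. Trim30a, Trim30d, Trim12a, Trim12c and Trim34a are related neighbours on chromosome 7, so their matches are not separate observations. A match or its absence describes these letters in this window only. Each line runs 5′ to 3′ on the strand of the gene, with the matched letters in capitals.
Trim30a, chr7:104465200-104465249, minus strand: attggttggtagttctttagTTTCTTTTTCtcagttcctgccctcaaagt
Trim30d, chr7:104507861-104507910, minus strand: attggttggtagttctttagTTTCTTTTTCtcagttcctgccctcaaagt
Trim12c, chr7:104353350-104353398, minus strand: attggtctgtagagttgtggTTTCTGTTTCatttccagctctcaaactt
Trim26, chr17:36836966-36837021, plus strand: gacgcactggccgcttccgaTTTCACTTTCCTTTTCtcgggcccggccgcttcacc
Trim21, chr7:102565447-102565476, minus strand: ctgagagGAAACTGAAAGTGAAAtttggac
Trim34a, chr7:104244457-104244486, plus strand: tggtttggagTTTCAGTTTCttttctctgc
Trim12a, chr7:104315466-104315495, minus strand: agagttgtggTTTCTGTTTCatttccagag

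The windows of Trim30a and Trim30d are identical over all 50 bases printed, and their promoters matched at 276 of 295 bases (93.6%) when aligned on the core without gaps. The core lies 36 to 27 bases before the start of Trim30a and 41 to 32 bases before that of Trim30d. The capitals hold 2 overlapping matches in Trim26, 160 to 145 bases before the start, and 2 in Trim21, 13 to 28 bases after it. Trim30a also has a second annotated start whose window holds the core. Aligned in the same way, the promoter of that start matched Trim30d at 113 of 257 bases (44%). The promoters of Trim12a and Trim12c matched at 120 of 261 bases (46%). For comparison, GAGGAA, the PU box that Spi-C and its relative PU.1 are known to bind, was found on either strand in 16 of the 50 TRIM promoters (32%) and in 30.5% of all genes, and in 4 of the 8 genes higher with LPS.

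With LPS, both genotypes had more mRNA of Trim13, Trim21, Trim25, Trim26, Trim30a, Trim30d, Trim36 and Trim56, and less of Trim8 and Trim47. Genes entered a comparison if either of its libraries held 5 FPKM, and those 2-fold apart on the scale of (FPKM + 1) were counted. In control, 22 TRIM genes entered, 8 (36.4%) were higher and 2 (9.09%) lower, against 12.3% and 6.5% of 8050 genes. In knockout, 9 of 22 (40.9%) were higher and 2 lower, against 13.7% and 7.74% of 8098 genes. Trim36 entered only through the libraries with LPS, so its difference follows from that filter. The 43 members that never reached 5 FPKM entered neither count. From 1 FPKM, 9 of 34 in control and 10 of 34 in knockout were higher and 3 lower in each, against 10.2% and 6.78% of genes in control and 11.5% and 8.32% in knockout. Trim30b, higher, and Trim65, lower, are the genes added by that lower limit. Trim30b entered only through its libraries with LPS and Trim65 only through those without, as Trim47 did from 5 FPKM in knockout, so the direction of these follows from the filter. By FPKM ratios without the added 1 FPKM, Trim16 (0.279), Trim62 (0.369), Trim68 (0.374) and Trim37 (0.447) were also 2-fold lower in control. Trim6 (2.23) was 2-fold higher there. In knockout, Trim16 (0.353), Trim62 (0.421), Trim68 (0.224) and Trim59 (0.490) were 2-fold lower. All of these lower genes but Trim37 entered only through libraries without LPS. From 5 FPKM, the 8 genes higher in control were all among the 9 of knockout, and the 2 lower genes, Trim8 and Trim47, were the same. These LPS comparisons share no library. The median of the 34 genes was 0.09 in control and 0.06 in knockout, beside 0.01 and 0.01 over 10935 genes, since the members stood on both sides of 0.

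**Figure D2:**
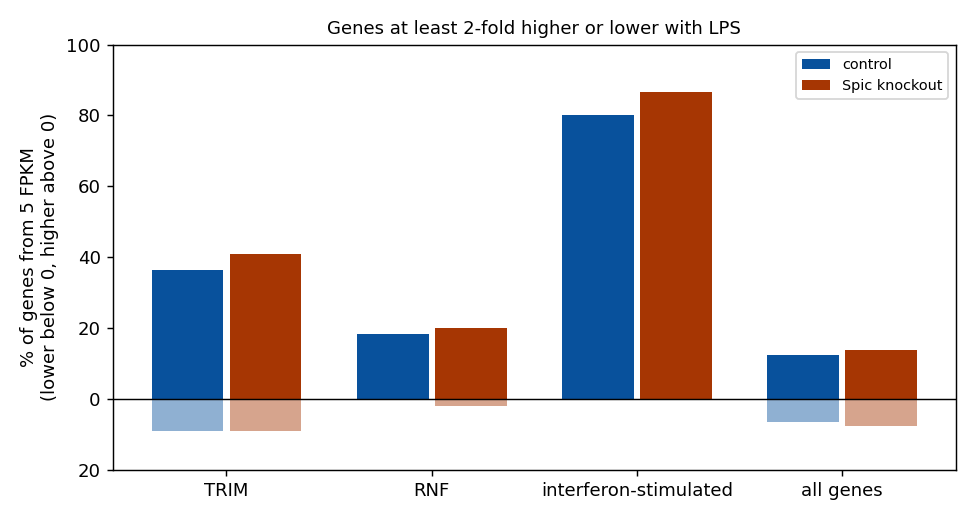
Share of genes from 5 FPKM that were at least 2-fold higher (above 0) or lower (below 0, paler) with LPS, in control and Spic knockout, 1 library per condition. TRIM genes, at 36.4% and 40.9% higher, lie between the RNF genes (18.4% and 20%) and the interferon-stimulated list (80% and 86.7%).

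Trim30a, whose product promotes loss of the TAB2 and TAB3 adaptors of Toll-like receptor signalling, was at 27.85 FPKM without and 108 FPKM with LPS in control, and at 34.8 and 152 FPKM in knockout. The ratios were 3.88 (interval 3.66 to 4.11) and 4.37 (4.13 to 4.63). Its paralog Trim30d was at 11.9 and 54.9 FPKM in control and at 16.4 and 84.2 FPKM in knockout, ratios of 4.61 and 5.14. Both libraries with LPS stood above both without for each of these paralogs. The low-level paralog Trim30b was at 0.624 and 2.69 FPKM in control and 0.784 and 4.11 in knockout. Values of this group are uncertain, because fragments from shared stretches can be assigned to either copy: 5.98% of the 50-base words of Trim30a transcripts and 7.49% of those of Trim30d also occur in another gene's transcripts.

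Trim21 encodes the cytosolic Fc receptor that marks antibody-coated particles for the proteasome. It was at 11.6 FPKM without and 56.2 FPKM with LPS in control, and at 12.97 and 79.8 FPKM in knockout. The ratios of 4.86 (interval 4.38 to 5.41) and 6.15 (5.52 to 6.86) were among the highest of the family. Trim13, which encodes a ligase anchored in the endoplasmic reticulum, was at 6.31 and 32.1 FPKM in control and 7.34 and 43.2 in knockout, ratios of 5.09 and 5.88. Of its 50-base words, 14.2% also occur in the transcript of Gm9359, so part of its level could belong there. The 2 libraries without LPS were alike for both genes, and the knockout library with LPS was the highest.

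Trim25 was at 39.6 FPKM without and 104 FPKM with LPS in control, and at 43.1 and 119.9 FPKM in knockout, ratios of 2.62 (2.51 to 2.73) and 2.78 (2.66 to 2.91). Trim56, whose product is reported to act on STING and TRIF signalling, was at 5.35 and 15.4 FPKM in control and at 5.34 and 17.2 in knockout. Trim26, a gene of the MHC region whose product acts on the interferon-inducing branch, was at 14.05 and 30.1 FPKM in control and 14.7 and 37.4 in knockout. Its control log2 ratio of 1.05 was just under 2-fold after median-ratio scaling (0.997). The control log2 ratio of Trim56 was 1.37 and became 0.98 with a pseudocount of 5 FPKM. Trim25 lies at chr11:88999403-89020294, Trim56 at chr5:137111286-137116462 and Trim26 at chr17:36837123-36859398 (GRCm38.p6).

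Trim36 had the highest log2 ratios of the family, 2.56 in control and 2.92 in knockout. With a pseudocount of 5 FPKM they were 1.34 and 1.70, below the 1.89 and 2.24 of Trim21. Its product belongs to the microtubule-binding subgroup and is known from cell cycle and cytoskeleton studies. The gene was at 0.826 FPKM without and 9.74 FPKM with LPS in control, and at 1.09 and 14.8 FPKM in knockout. The ratio rested on about 43 fragments without and 345 with LPS in control and was 11.8 (interval 8.58 to 16.6), and it was 13.65 (10.1 to 18.9) in knockout. Of the other 7 genes of the microtubule and muscle list, none reached 1 FPKM, with Trim46 highest at 0.516.

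By the lists, 11 of the 14 innate sensing genes reached 1 FPKM. From 5 FPKM, 5 of 9 were 2-fold higher with LPS in control and 5 of 8 in knockout (Trim13, Trim21, Trim25, Trim26 and Trim56), against 12.3% and 13.7% of all genes, and Trim8 was lower in both. Trim65, also on that list and under 5 FPKM, was lower in both as well.

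Lower with LPS was Trim65, whose product ubiquitinates the RNA sensor MDA5. It was at 4.66 FPKM without and 0.630 FPKM with LPS in control, and at 4.32 and 0.916 FPKM in knockout. That left 13.5% of the level without LPS in control (interval of the ratio 0.0835 to 0.209) and 21.2% in knockout (0.133 to 0.324), on about 22 and 25 fragments with LPS. Ifih1, the gene of MDA5 itself, was higher with LPS, at 9.94 and 139 FPKM in control. Trim47, the neighbour of Trim65 on chromosome 11, was at 12.7 and 5.23 FPKM in control and at 15.5 and 4.25 in knockout. The annotated exons of Trim47 and Trim65 overlap by 225 bases on the same strand, so their values are not fully separate.

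Trim8 was at 33.2 FPKM without and 13.03 FPKM with LPS in control, and at 34.6 and 14.996 FPKM in knockout. The ratios were 0.393 (interval 0.354 to 0.435) and 0.434 (0.388 to 0.484). Both libraries with LPS stood below both without. A further 4 genes of 1 to 5 FPKM, named after their values were seen, had log2 ratios between −0.68 and −0.99 in both genotypes: the peroxisome and centriole gene Trim37, Trim62, Trim68 and Trim16, known for its part in handling damaged lysosomes. Trim16 was at 2.2025 and 0.614 FPKM in control and at 1.91 and 0.672 in knockout.

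The nuclear cofactors with a bromodomain differed little. Trim28 was at 29.2 FPKM without and 23.8 FPKM with LPS in control and at 32.8 and 30.4 in knockout, ratios of 0.815 (interval 0.745 to 0.891) and 0.926 (0.845 to 1.01). Trim33 was at 4.34 and 4.98 FPKM in control and 4.53 and 5.42 in knockout. Trim24 was at 3.89 and 3.03 FPKM in control and 3.51 and 3.01 in knockout, and Trim66 stayed under 0.1 FPKM. Among NHL-repeat genes, Trim3, an endosomal ligase, was at 10.5 and 17.3 FPKM in control and 9.81 and 18.2 in knockout, while Trim32 was at 5.04 and 3.73 FPKM in control and 4.50 and 3.49 in knockout.

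Other abundant members had log2 ratios within 0.5 of 0 in control. Trim35, first described in macrophage and erythroid differentiation, stayed between 31.3 and 36.7 FPKM in the 4 libraries, and Trim27 between 9.86 and 11.3 FPKM. Trim41 (17.1 and 14.4 FPKM in control, 18.7 and 13.7 in knockout), Trim44 (13.7 and 11.6, then 14.3 and 10.7) and Trim11 (11.1 and 9.78, then 10.5 and 8.61) were somewhat lower with LPS. The signs of Trim35, Trim14 and Trim27 in control were positive as deposited and negative after upper-quartile scaling. That scaling took the all-gene median from 0.01 to −0.13 in control and to −0.14 in knockout, and the median of the 34 TRIM genes to −0.06 and −0.10.

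**Figure D3:**
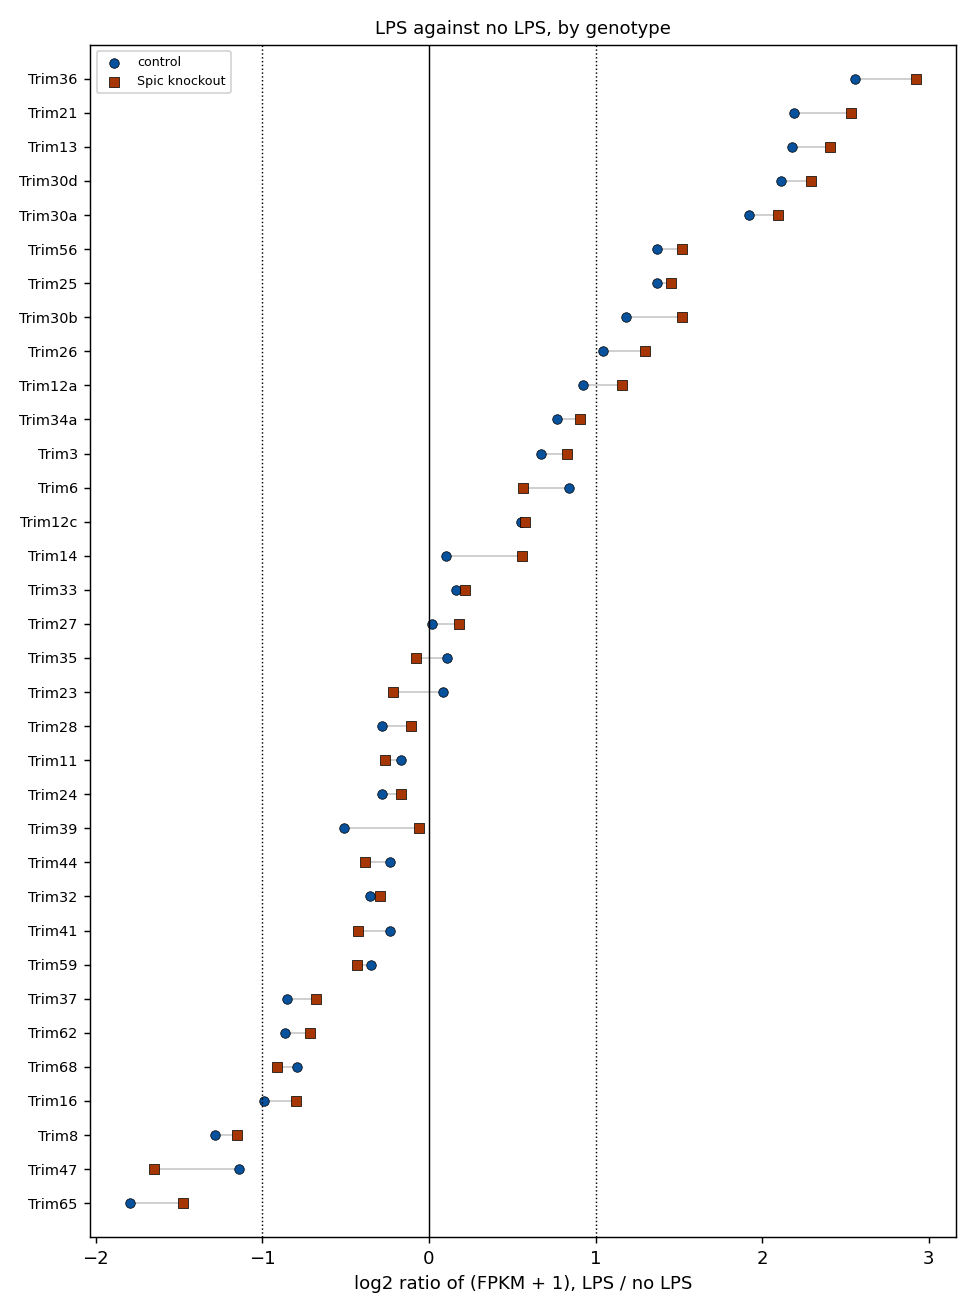
Log2 ratio of (FPKM + 1), LPS against no LPS, for the 34 TRIM genes from 1 FPKM, with circles for control, squares for Spic knockout and dotted lines at 2-fold. Trim36, Trim21, Trim13, Trim30d and Trim30a lie highest in both genotypes, Trim65, Trim47 and Trim8 lowest.

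A run of TRIM genes on chromosome 7 stood higher with LPS. Within chr7:104218795-104535361 (GRCm38.p6) lie Trim6, Trim34a, Trim12a, Trim34b, Trim12c, Trim30b, Trim30a, Trim30d and the pseudogene Trim30e-ps1, mouse relatives of the retroviral restriction factor gene TRIM5. The 7 that reached 1 FPKM had log2 ratios above 0 in both genotypes, from 0.55 to 2.11 in control and from 0.56 to 2.29 in knockout, with medians of 0.93 and 1.16. Trim30b reached 1 FPKM only with LPS, so its direction follows from that filter and adds nothing to this count. Of all genes from 1 FPKM, 5559 of 10935 stood above 0 in each genotype. Trim12a was at 13.9 and 27.3 FPKM in control and 15.8 and 36.5 in knockout, Trim12c at 10.9 and 16.4, then 12.6 and 19.3. Trim34a was at 6.58 and 11.9 FPKM in control and 8.60 and 16.98 in knockout, and Trim6 at 1.785 and 3.99, then 1.37 and 2.50. Trim34b stayed under 0.06 FPKM and Trim30e-ps1 was listed at 0. Their sequences overlap: 39.8% of the 50-base words of Trim34a also occur in Trim34b, and 33% of those of Trim12c in other genes, Trim5 and Trim12a foremost, so the split between copies is uncertain. The 7 genes are therefore not 7 separate observations.

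Including Trim21 and Trim68, which lie on the same chromosome at chr7:102557920-102565482 and chr7:102677579-102687335, chromosome 7 genes of this region made up 22.6% of the summed TRIM FPKM without and 42.5% with LPS in control. In knockout the shares were 25.4% and 47.8%. Trim68, at 2.08 and 0.778 FPKM in control and 1.52 and 0.341 in knockout, was the 1 expressed gene of the region that stood lower with LPS. It reached 1 FPKM only without LPS, so its direction follows from that filter. This grouping by position was made after the values were seen. It leaves out Trim3, which lies at chr7:105604463-105633574 and had LPS log2 ratios of 0.67 in control and 0.83 in knockout. The TRIM5 relatives of the block alone made up 19.1% without and 33.9% with LPS in control. In knockout their shares were 21.9% and 38.1%.

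**Figure D4:**
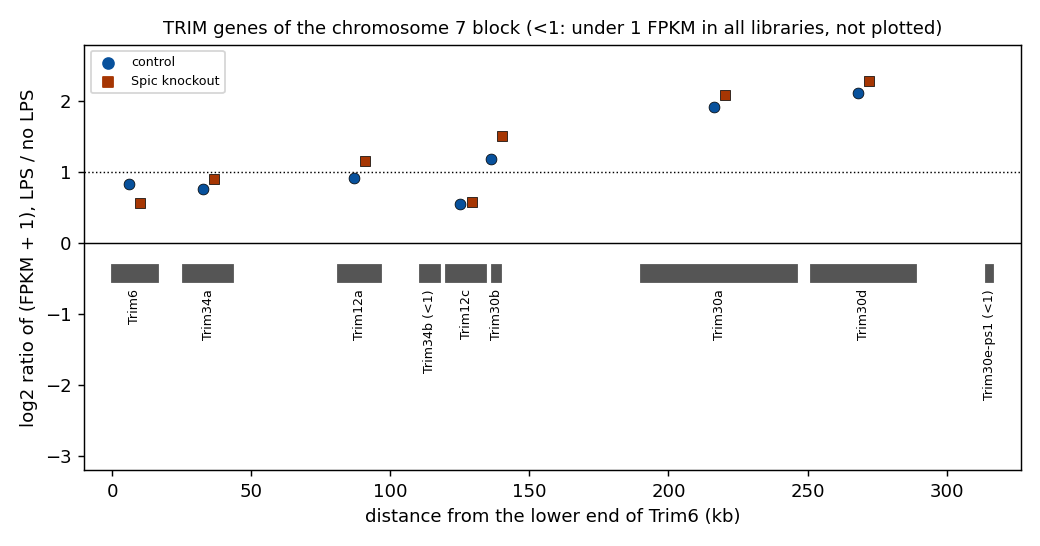
Log2 ratio of (FPKM + 1), LPS against no LPS, for TRIM genes of the chromosome 7 block, plotted over gene bodies (grey) against distance in kb, with circles for control and squares for Spic knockout. All 7 plotted genes lie above 0, and Trim30a, Trim30b and Trim30d lie above the dotted 2-fold line in both genotypes. Trim30b reached 1 FPKM only with LPS, so its direction follows from that filter.

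Without LPS, no TRIM gene that reached 1 FPKM was 2-fold apart between knockout and control, nor 1.5-fold. Genes under 1 FPKM cannot be 2-fold apart on the scale of (FPKM + 1). By FPKM ratios, such genes lay on both sides, as with Trim2 (0.623, interval 0.405 to 0.945) and Trim29 (3.32, 0.96 to 14.8). Of 21 genes that entered from 5 FPKM, 0 were higher and 0 lower at 1.5-fold, against 1.75% and 1.37% of 7762 genes (0.49% and 0.412% at 2-fold). The log2 ratios of the 34 genes ran from −0.29 to 0.43 with a median of 0.05, equal to the 0.05 of all genes. The 3 highest were Trim30d (ratio 1.38, interval 1.21 to 1.57), Trim34a (1.31, 1.09 to 1.56) and Trim30a (1.25, 1.16 to 1.34).

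With LPS, the highest ratio of knockout to control among TRIM genes from 5 FPKM was the 1.53 of Trim30d. Of 22 genes from 5 FPKM, 0 were 2-fold apart, against 0.493% higher and 0.4% lower among 7509 genes. At 1.5-fold on the scale of (FPKM + 1), 1 of 22 was higher, Trim30d, against 2.86% of genes, and 0 were lower, against 1.69%. These shares are near the background. Trim36 was not counted, since its log2 ratio on that scale was 0.56, though its FPKM ratio was 1.52. The median of the 34 genes was 0.16, beside 0.06 over all genes, 0.05 over 59 RNF genes and 0.47 over 30 interferon-stimulated genes. After upper-quartile scaling the TRIM median was 0.08 and that of all genes −0.02.

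With LPS, Trim30d reached 54.9 FPKM in control against 84.2 in knockout, a ratio of 1.53 (interval 1.43 to 1.65). Among genes from 5 FPKM, Trim36 followed with 9.74 and 14.8 FPKM (1.52, 1.31 to 1.76), then Trim34a with 11.9 and 16.98 (1.43, 1.22 to 1.68), Trim21 with 56.2 and 79.8 (1.42, 1.32 to 1.52) and Trim30a with 108 and 152 (1.41, 1.35 to 1.47). Below 5 FPKM, Trim39 had a ratio of 1.596 (1.18 to 2.15) and Trim30b one of 1.53 (1.12 to 2.09). Trim13 was at 32.1 and 43.2 FPKM, Trim12a at 27.3 and 36.5, and Trim25 at 104 and 119.9. The control library with LPS enters both this comparison and the LPS response of control, so these ratios are no separate evidence of the order seen there.

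The LPS ratios of some members lay further apart in the 2 genotypes, or ran the other way by genotype. Trim14, which encodes a RING-less adaptor of MAVS signalling, was at 22.0 FPKM without and 23.7 with LPS in control, but at 20.2 and 30.2 FPKM in knockout. Its LPS ratio was 1.075 (interval 0.929 to 1.24) in control and 1.49 (1.28 to 1.75) in knockout. The exons of Trim14 overlap those of Nans on the opposite strand over 31.3% of their length. Whether the authors counted by strand is unknown here, so fragments of either gene may be counted for the other. Nans was at 20.2 FPKM without and 13.5 with LPS in control, and at 20.8 and 14.1 in knockout. The part of this overlap in the Trim14 values was not tested. Trim39, at 4.36 and 2.77 FPKM in control and 4.64 and 4.42 in knockout, had a log2 ratio of −0.51 in control and −0.06 in knockout. Trim47 went the other way, with −1.14 in control and −1.65 in knockout. Trim6 was lower in knockout with LPS, at 3.99 FPKM in control and 2.50 in knockout (ratio 0.627, interval 0.438 to 0.888). Whether the LPS response differed between genotypes could not be tested with 1 library each.

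**Figure D5:**
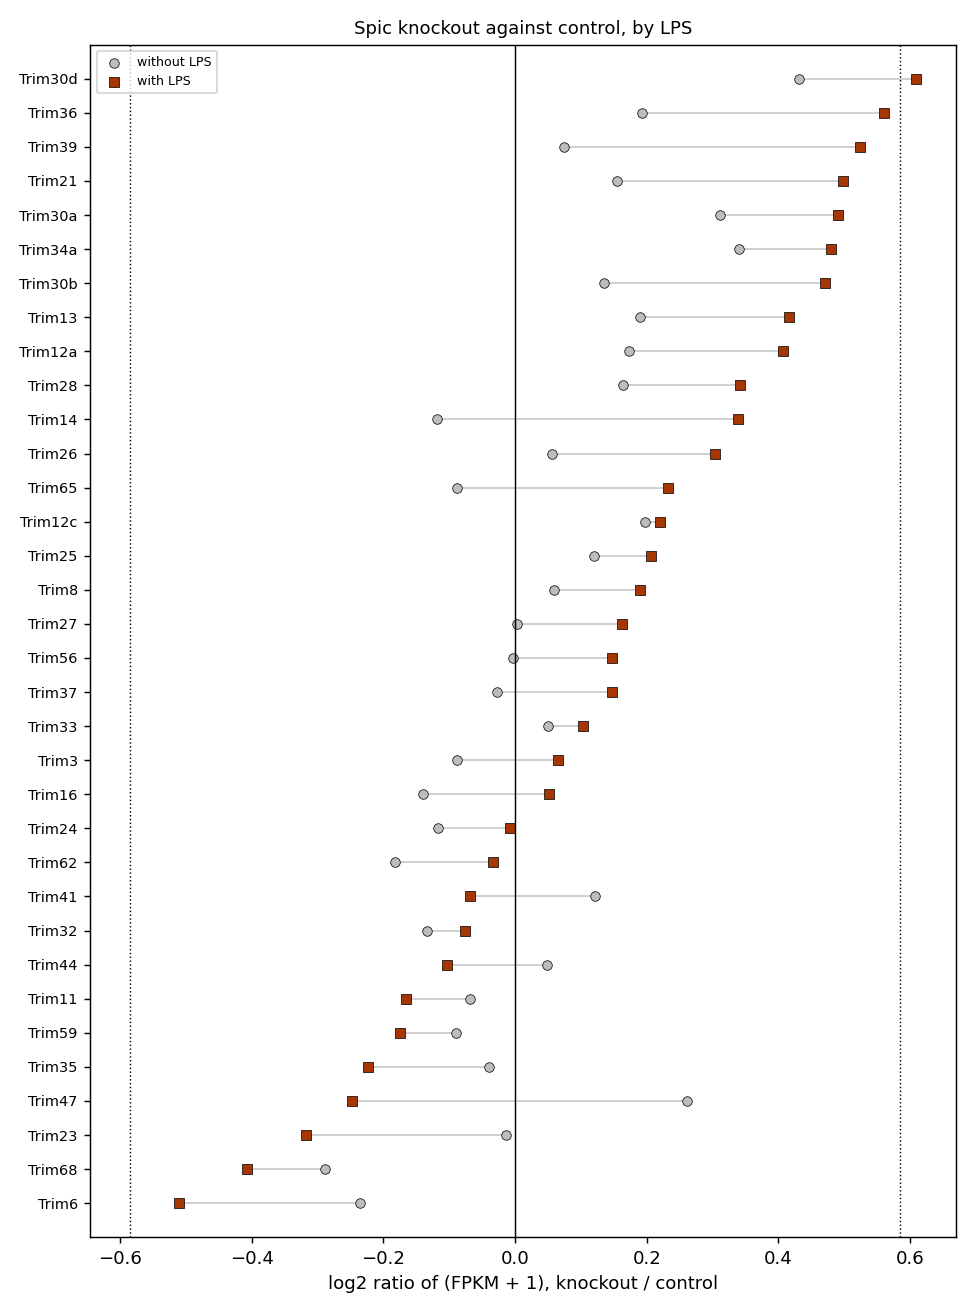
Log2 ratio of (FPKM + 1), Spic knockout against control, for the 34 TRIM genes from 1 FPKM, with circles without LPS, squares with LPS and dotted lines at 1.5-fold. All circles lie within the dotted lines, and Trim30d with LPS (0.61) is the 1 point beyond them.

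In the same libraries, stromal markers summed to 562 FPKM in control and 300.1 in knockout without LPS, and to 601 and 347 with LPS, and 7 of the 8 genes on that list reached 1 FPKM. Macrophage markers summed to 8165 and 6282 FPKM without LPS and to 10820 and 9526 with LPS, sums in which the lysozyme gene Lyz2 weighs most (6340 and 4014 FPKM without LPS). Without LPS, 6 of the other 7 macrophage markers were higher in knockout, such as Emr1, the F4/80 gene, at 438.7 and 548.9 FPKM, and Mertk was at 18.5 and 17.9 FPKM. In a bulk sample, fewer cells of a type and less RNA per cell cannot be told apart. The part of these differences in the TRIM ratios between genotypes was not tested.

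The partners of TRIM ligases were described by lists of other genes. Of 9 genes for E2 enzymes and the ISG15 system, 3 were 2-fold higher with LPS in each genotype on the scale of (FPKM + 1). The share was 12.3% of all genes in control and 13.7% in knockout, and none of the 9 was 2-fold lower. The 3 were Isg15, at 54.4 and 1349 FPKM in control, the ISG15 protease gene Usp18, at 12.5 and 169.96, and the ISG15 E2 gene Ube2l6, at 53.3 and 115. Ube2n, the E2 for lysine-63 chains, was at 24.3 and 46.2 FPKM, and Ube2d3 at 118 and 225. Without LPS, Isg15 and Usp18 were 1.5-fold or more higher in knockout (log2 ratios 0.70 and 0.66). That is 2 of 9 genes, against 1.75% of all genes from 5 FPKM.

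Of 14 genes for sensors, adaptors and kinases, 13 reached 5 FPKM. On the scale of (FPKM + 1), 6 of these were 2-fold higher in control with LPS and 5 in knockout, against 12.3% and 13.7% of all genes. None was 2-fold lower on that scale, though the FPKM ratio of Mavs in control was 0.489. Ifih1 led (3.68 in control), followed by Tab2 (1.73), a TRIM30A target gene, at 28.6 and 97.2 FPKM, and Ikbke (1.69). The RIG-I gene Ddx58, the partner of Trim25, was at 13.2 and 44.2 FPKM in control. Mavs was at 18.2 and 8.89 FPKM and the STING gene Tmem173 at 14.1 and 8.78. Irf7 was the 1 gene of these 13 at 1.5-fold by genotype with LPS, with 361 FPKM in control against 546 in knockout. Of all genes from 5 FPKM, 2.86% were higher at 1.5-fold in that comparison.

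A few TRIM proteins are encoded by genes with other symbols. Mefv, the pyrin gene (TRIM20), was at 5.37 FPKM without and 51.5 FPKM with LPS in control and at 8.37 and 58.1 in knockout. Pml (TRIM19), the scaffold of nuclear bodies, was at 10.3 and 13.3 FPKM in control and 10.99 and 19.5 in knockout. Mid1 stayed between 0.681 and 1.34 FPKM, and Mid2 and Cmya5 stayed under 1 FPKM in all libraries. Every one of the 30 interferon-stimulated genes had log2 ratios above 0 in all 4 comparisons as deposited, with medians of 2.05 and 2.14 for LPS in control and knockout, against 0.09 and 0.06 for the 34 TRIM genes. Of all 10935 genes from 1 FPKM, 5559 stood above 0 in each LPS comparison. By genotype, 6825 of them did so without LPS and 6561 with LPS.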

How the data were processed

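RNA of 4 libraries had been made with a stranded mRNA kit, per the labels' protocols, which give hemin as 40 µM (the sample descriptions give mM). The authors deposited FPKM values, 1 file per library, and the submitters' processing notes name mm10, Cuffnorm 2.2.1, the aligners TopHat2 2.0.13 with Bowtie2 2.2.3, and also SAMtools 0.1.19. Roles, settings, strand use and annotation are not given in the sources used here. Values were used as deposited.

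With pandas 2.3.3, a pseudocount of 1 FPKM was added and log2 ratios were taken, 1 library against 1. Genes counted as 2-fold or 1.5-fold apart were counted on these log2 ratios. Relative depth came from ratios of values under 0.3 FPKM. Of 3175 genes under 0.6 FPKM, 89.8% were whole multiples of 1 step within a tolerance of 0.02. Absolute depth came from 473 single-transcript genes with an effective length 210 bases below the exonic one. Member lengths were medians of GENCODE basic coding transcripts. Named were genes from 5 FPKM, and genes of 1 to 5 FPKM at least 2-fold apart in a comparison; of other lists, the 3 largest ratios and any member at 1.5-fold by genotype. Further genes were named after their values were seen. The members and lists were chosen with earlier results of these data known. The counting of called genes was tested on simulated data with counting error only and with changes well past the fold limits. That simulation held no variation between cultures, so it says nothing of such error in these libraries. Alternatives in pseudocount, minimum level, scaling and fold were tried. Trim5 and Trim30c were not analysed here.

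Markers not named in the results were at low levels: T cell markers summed to at most 0.116 FPKM, dendritic cell markers to 0.715, muscle markers to 0.527 and neutrophil markers to 8.20. The result of 1 marker list is not reported here.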

Additional observations from a re-analysis of the deposited data

How the results depend on the processing

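Each alternative changed a single choice: the pseudocount (0.1 or 5 FPKM), another minimum level, scaling by median ratios or upper quartiles, another fold, and, added after seeing the data, leaving out members that share at least 5% of their 50-base words with another gene. At 3-fold, 5 of 22 TRIM genes were apart with LPS in control and 6 of 22 in knockout, in place of 10 and 11. The share of all genes at 3-fold was not computed. Without members sharing sequence there were 6 of 15 in each at 2-fold, 5 higher and 1 lower. The all-gene shares at 2-fold were 12.3% higher and 6.5% lower in control, and 13.7% and 7.74% in knockout. At 1.5-fold, 1 of 22 genes was apart by genotype with LPS, against 2.86% of all genes higher and 1.69% lower. The median over members for LPS in control, 0.09 as reported, was 0.55 from 5 FPKM, 0 over genes above 0 FPKM, −0.0629 after upper-quartile scaling and −0.0742 without members sharing sequence. In knockout it was 0.06, and under the same alternatives 0.58, 0, −0.10 and −0.0913. The median by genotype without LPS, 0.05, was 0 over genes above 0 FPKM, −0.02 after upper-quartile scaling and −0.0081 without members sharing sequence. The cause was not tested where the values do not show it. Of 400 alternative ratios of the 25 named members, 344 moved by less than the distance from middle to end of the log2 counting interval. Another 56 moved further, and 0 changed sign among those at 2-fold. With a pseudocount of 5 FPKM, Trim30b (0.45 in control, 0.66 in knockout) and Trim65 (−0.78 and −0.66) were under 2-fold, as were Trim47 (−0.79) and Trim26 (0.88) in control and Trim8 (−0.99) and Trim12a (0.998) in knockout. The number under 1 FPKM stayed at 32 under both scalings. No paired analysis was possible because each group has 1 library and the labels give no replicate numbers. Depth limits what can be said of the 15 members listed at 0, for which a 2 kb transcript could be at up to 0.208 FPKM in knockout with LPS.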
